A study of Mus musculus and Homo sapiens with 12 samples.

Results

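The EGF receptor family and its ligands were followed in pancreatic ductal carcinoma grown in the liver. The family was taken as 10 gene symbols, matched in capitals to the gene column of each comparison table: the receptors EGFR, ERBB2 and ERBB3 and the ligands EREG, AREG, HBEGF, TGFA, EGF, BTC and EPGN. All 10 had a row among the 23201 genes of the mouse table. Among 18190 genes of the human table, 9 had a row, and no row matched EGF. Every member with a row also had an adjusted p.

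The 12 RNA samples form 4 groups, each with 3 replicates that the titles call biological. The mouse pancreatic cancer line is KPC, and KPC LM2 is its liver metastatic derivative of generation 2. PANC1 is an established human pancreatic cancer line, and PANC1 LM3 is its liver metastatic derivative of generation 3. All 4 groups are labelled wild type, and all were put into the spleen as 500000 cells on day 1 and collected as liver tumours on day 21; the labels give no host strain, age or treatment, and titles name cells where protocols name tumours. The human line therefore grew among host cells of a species that the protocols do not name. Each model was deposited as 1 table of the comparison between parental and selected line, with no value per library, so the spread between replicates is seen only through the listed standard error (SE), and depth per sample is unknown. The tables do not say which line is the numerator of the fold change. A sign is therefore reported only as the table lists it, and is assigned neither to the parental nor to the selected line. Level means the mean normalised count of a gene over the libraries of a table, with no correction for gene length unless one is named.

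Receptors of this family are tyrosine kinases that pair with one another when a ligand binds, and they pass the signal on through RAS and ERK, PI3K and STAT proteins. EGFR binds the ligands listed here, ERBB2 has no known soluble ligand and serves as a partner, and ERBB3 has a weak kinase and binds neuregulins. Ligands are made as membrane-anchored precursors, and ADAM proteases cut them free. In the pancreas, EGFR signalling is known for its part in turning acinar cells into duct-like cells and in early carcinoma.

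In the mouse model the pseudokinase receptor and a pair of ligands were called on the positive side, and no member was called on the negative side. Erbb3, Btc and Ereg passed an adjusted p of 0.05 in the authors' Wald test (Benjamini-Hochberg over all tested genes), which is 3 of 10 members. Of all 20050 tested genes 10.4% were called, 5.77% positive and 4.60% negative. The 3 called members each differed by more than 2-fold, which held with a call for 6.50% of tested genes. The median log2 fold change was 0.26 over the 10 members and -0.08 over all tested genes. Low genes of that table were mostly negative, 89.6% of the 7258 tested genes under a level of 16. Genes at 64 or more, where 8 of the 10 members lay, had a median of 0.22. Adjusted on their own, 1345 of these 9767 genes were called, 1122 positive and 223 negative, and 3 of the 8 members.

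Among the mouse receptors, Erbb3 differed between the lines, and for Egfr and Erbb2 no difference was found. The authors' deposited table listed Erbb3 at a log2 fold change of 1.86 ± 0.42 (SE) with an adjusted p of 0.00046 by the Wald test and a level of 358. That is a 3.63-fold difference, with a 95% interval of 2.06 to 6.40, and Erbb3 ranked 367 of 20050 genes by the size of its Wald statistic. Erbb3 is the member that depends on a partner kinase to signal. Egfr, the main receptor of the ligands described here, was at -0.068 ± 0.30 with a level of 849 in the authors' deposited table, and its interval ran from -0.65 to 0.51. Erbb2, the preferred partner of the other receptors, stood at 0.13 ± 0.22 with a level of 660 in the authors' deposited table and had an interval from -0.29 to 0.56. A difference of 2-fold, 1 on the log2 scale, lay outside both intervals. With fold changes recentred on genes at 64 or more, Erbb2 was at -0.085 and so turned sign, and Erbb3 was at 1.64.

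Epgn, Ereg, Areg and Btc are neighbours on mouse chromosome 5, in that order among tested protein-coding genes in RefSeq's GRCm38.p6 annotation. Mouse promoter sequence was matched for 7 of the 10 members. Those of the neighbours Areg, Btc and Epgn are shown because these genes share a chromosomal stretch, while only Btc and Ereg of the 4 neighbours were called. The promoter of Ereg is not shown, so Btc is the 1 called gene among them, and Epgn had a level of only 7.88. Called and uncalled genes were therefore not compared by their promoters. Each is the 250 bases before the RefSeq start on GRCm38.p6, 5′ to 3′ along the gene: Areg at chr5:91139349-91139598 (plus strand), Btc at chr5:91402995-91403244 (minus strand) and Epgn at chr5:91027267-91027516 (plus strand). Capitals mark matches to any of 4 motifs searched on both strands: the cyclic AMP response element TGACGTCA, the AP-1 site TGACTCA, the TATA box TATAAA and the GC box GGGCGG.
Areg: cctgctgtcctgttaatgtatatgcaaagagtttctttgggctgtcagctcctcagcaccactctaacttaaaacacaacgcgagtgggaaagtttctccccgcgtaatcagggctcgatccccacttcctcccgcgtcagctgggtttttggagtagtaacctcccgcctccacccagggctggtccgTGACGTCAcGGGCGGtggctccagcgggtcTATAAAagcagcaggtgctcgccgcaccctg
Btc: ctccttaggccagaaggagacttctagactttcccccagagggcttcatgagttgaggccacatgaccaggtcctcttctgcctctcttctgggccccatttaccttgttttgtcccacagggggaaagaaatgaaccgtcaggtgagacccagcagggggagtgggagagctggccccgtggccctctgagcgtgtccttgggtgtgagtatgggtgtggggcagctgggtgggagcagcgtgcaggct
Epgn: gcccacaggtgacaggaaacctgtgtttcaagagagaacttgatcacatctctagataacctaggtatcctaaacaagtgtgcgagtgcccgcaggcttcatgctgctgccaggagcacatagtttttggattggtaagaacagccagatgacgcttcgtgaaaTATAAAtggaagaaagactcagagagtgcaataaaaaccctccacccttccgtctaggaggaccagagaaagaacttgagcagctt
The Areg window held TGACGTCA at -61, GGGCGG at -52 and TATAAA at -31, counted from the base before the start as -1 to the first base of each match. In 32851 mouse windows of the same length, 1.55% held TGACGTCA, 32.7% GGGCGG, 12.4% TATAAA and 4.46% TGACTCA. The Epgn window held TATAAA at -86, and in the Btc window none of the 4 motifs was found. No match overlapped another.

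Of the 7 mouse ligand genes, Btc and Ereg were called, both positive. Betacellulin, the product of Btc, binds EGFR and ERBB4. Btc was listed at 1.50 ± 0.40 with a Wald adjusted p of 0.0055 and a level of 475 in the authors' deposited table. This is a 2.83-fold difference with a 95% interval of 1.64 to 4.89. Epiregulin, the product of Ereg, has the same receptors. Ereg was at 1.04 ± 0.34 with a Wald adjusted p of 0.030 and a level of 651 in the authors' deposited table, a 2.06-fold difference. Its call was lost with recentred fold changes (0.82, adjusted p 0.094) and after the running median over level was subtracted (0.80, adjusted p 0.17).

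Areg, which encodes the EGFR ligand amphiregulin, was just short of the threshold. The authors' deposited table gave it 0.65 ± 0.25 with a Wald adjusted p of 0.077 and a level of 716. Hbegf, encoding heparin-binding EGF-like growth factor, was at 0.38 ± 0.23 with a level of 2013, the highest of the 10 members before correction for length, in the authors' deposited table. Tgfa, for transforming growth factor alpha, was at -0.33 ± 0.24 with 681 in the same authors' deposited table. The intervals of Hbegf, -0.07 to 0.82, and of Tgfa, -0.80 to 0.15, both held 0. Egf itself and Epgn, the gene of epigen, were low, with levels of 42.6 and 7.88 in the authors' deposited table. Their log2 fold changes were -0.28 ± 0.40 and -0.057 ± 0.86 in the authors' deposited table, and for Epgn the interval of -1.74 to 1.63 does not exclude a 3-fold difference in either direction.

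**Figure D1:**
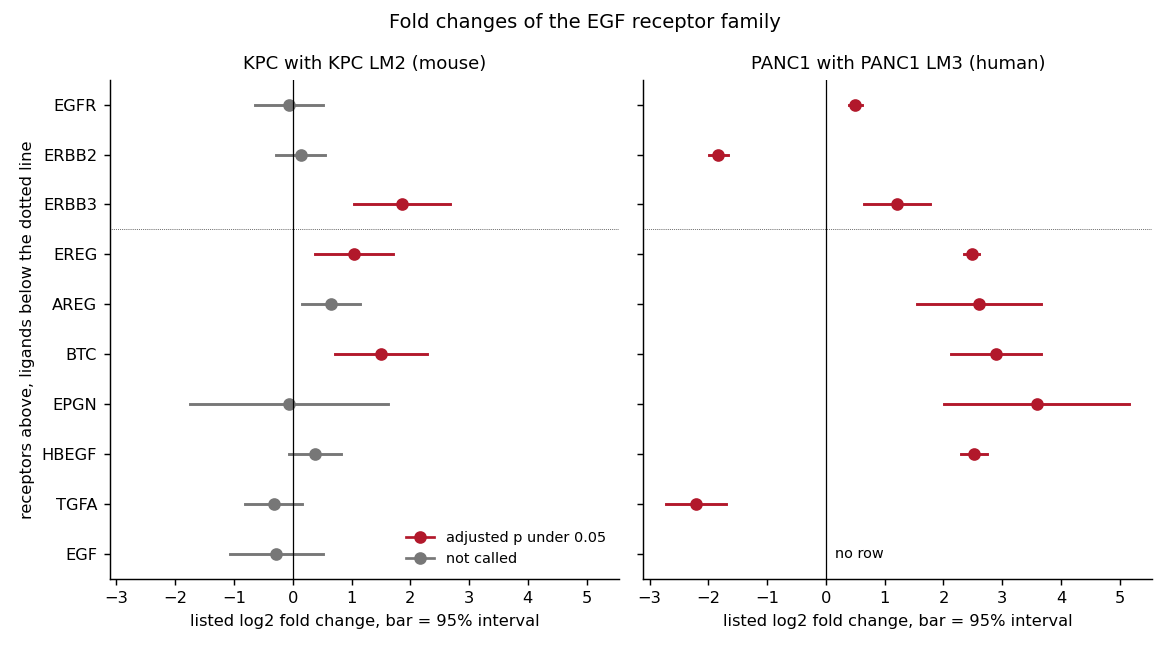
Listed log2 fold change of each family member (points) with its 95% interval from the listed SE (bars), KPC model on the left and PANC1 model on the right; red marks an adjusted p under 0.05. ERBB3, BTC and EREG are red and positive in both panels, and TGFA and ERBB2 are red and negative in the PANC1 panel.

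Per kilobase of exon, the mouse ligand genes were ordered differently from their counts. Lengths were the union of GENCODE exons on GRCm38, another build than the authors' mm39. On this scale of level per kilobase Areg stood at 589, Hbegf at 416, Ereg at 158, Btc at 105 and Tgfa at 105. Epgn at 4.36 and Egf at 3.78 per kilobase were far below. Receptor genes stood at 127 per kilobase for Erbb2, 74.9 for Egfr and 59.4 for Erbb3. The tables give no spread of a level over samples, so neighbours in this order, such as Btc and Tgfa or Egfr and Erbb3, cannot be told apart.

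In the human model all 9 members with a row were called, 7 positive and 2 negative, where 52.5% of all 17838 tested genes were called, 26.0% positive and 26.5% negative. Of the 6 ligands with a row, 5 were positive and TGFA alone was negative. The median over the 9 members was 2.48, against -0.0020 over all tested genes. Of the 9 members, 8 were called with a listed difference of more than 2-fold, and EGFR was the exception. Such calls made up 15.5% of all tested genes. Among genes at 64 or more, adjusted on their own, 5 of 5 members were called. Of all 11301 such genes 8023 were called, 3781 positive and 4242 negative.

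Human receptors differed in sign. The authors' deposited table listed EGFR at 0.50 ± 0.05 with a level of 5996 and a Wald adjusted p of 2.19e-20, a 1.42-fold difference (95% interval 1.32 to 1.52). ERBB2 was on the other side at -1.83 ± 0.08 with 1021 and a Wald adjusted p of 4.22e-108 in the authors' deposited table. The 3.55-fold difference of ERBB2 had an interval of 3.18 to 3.97. ERBB3 was positive at 1.21 ± 0.28 with a Wald adjusted p of 6.41e-05 in the authors' deposited table, but at a level of only 40.7. In this line EGFR was listed above 98.2% of tested genes by level, ERBB2 above 79.9% and ERBB3 above 32.9%, before correction for length.

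Among human ligands EREG had the smallest adjusted p and the highest level. The authors' deposited table gave EREG 2.48 ± 0.07 with a level of 1778 and a Wald adjusted p of 3.32e-300. It ranked 26 of 17838 genes by the size of its Wald statistic. Taking the level as the mean over 3 libraries of each line, as in DESeq2, this corresponds to 3015 normalised counts in the numerator line and 540 in the other. HBEGF was at 2.52 ± 0.11 with 423 and a Wald adjusted p of 4.19e-114 in the authors' deposited table, corresponding to levels of 720 and 126. Fold differences were 5.58 for EREG (95% interval 5.10 to 6.11) and 5.73 for HBEGF (4.93 to 6.65). These intervals overlapped.

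BTC, AREG and EPGN were positive as well, at low counts. They were listed at 2.89 ± 0.39, 2.60 ± 0.54 and 3.59 ± 0.80 with levels of 33.1, 16.1 and 9.51 in the authors' deposited table. Their Wald adjusted p-values were 1.01e-12, 5.38e-06 and 2.57e-05 in the authors' deposited table. Levels computed as above were 58.4 and 7.88 for BTC, 27.7 and 4.56 for AREG and 17.6 and 1.46 for EPGN, so these folds rest on low levels in 1 of the lines and are no bounds. The 12.0-fold difference of EPGN had an interval of 4.04 to 35.8. AREG has a near-identical copy, AREGB, in the hg19 assembly, and whether reads shared by both were counted is not given in the sources used here; the level of AREG is therefore uncertain. TGFA was the negative ligand, at -2.21 ± 0.26 with a level of 66.5 and a Wald adjusted p of 8.25e-17 in the authors' deposited table. Computed levels of TGFA were 23.6 in the numerator line and 109 in the other.

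**Figure D2:**
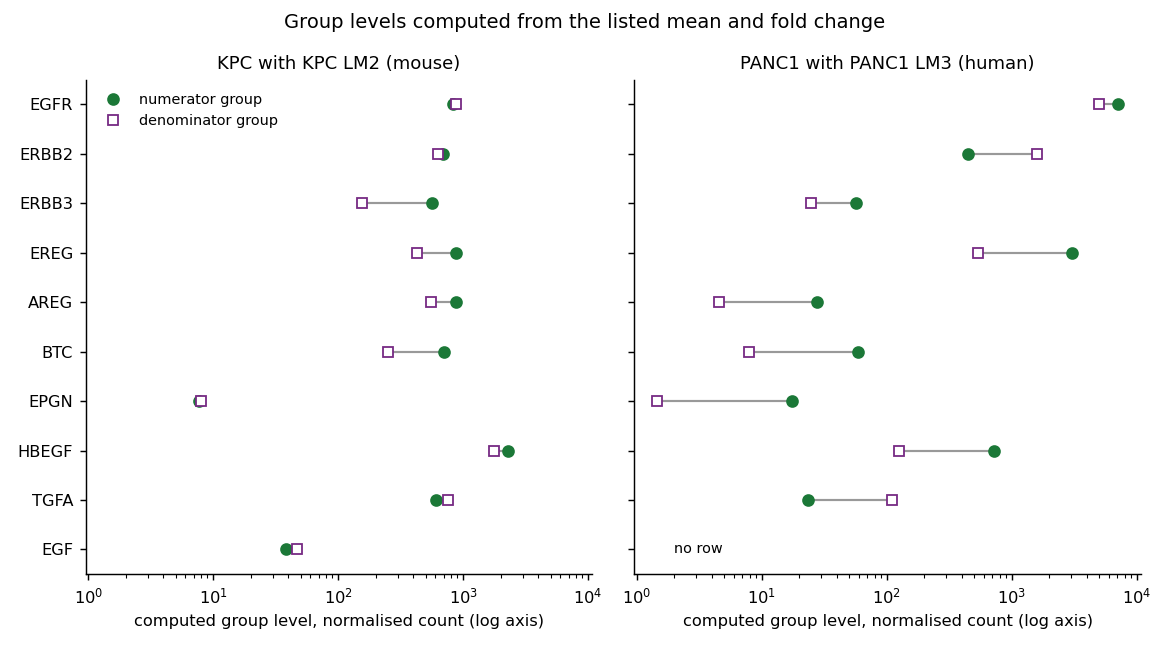
Level of each member in the numerator line (filled circles) and the denominator line (open squares), computed from the listed level and fold change under the assumption of 3 libraries a line, on a log axis of normalised counts. In the PANC1 panel EREG spans 540 to 3015 while AREG, BTC and EPGN lie under 60 on both sides; in the KPC panel Erbb3 spans 154 to 561.

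**Figure D3:**
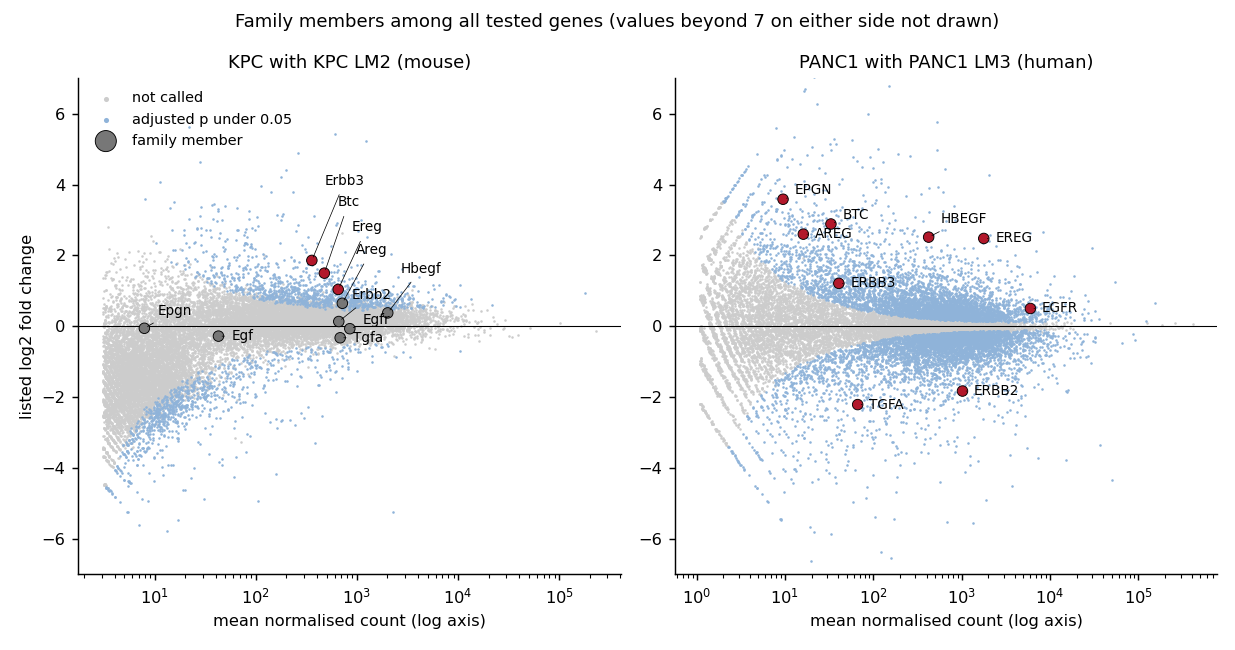
Listed log2 fold change against level (log axis) for all genes with an adjusted p, grey not called and blue called, with the family members as large points (red called, grey not called). In the KPC panel the cloud of low genes lies below 0, and Erbb3, Btc and Ereg lie above 0 at counts of 358 to 651.

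On either side of the Epgn to Btc stretch, the nearest tested protein-coding genes of the mouse were not called. Of all tested mouse genes only 10.4% were called, so this does not set the stretch apart. The nearest 3 before it were Cxcl1, Cxcl2 and Mthfd2l, and the nearest 3 after it were Parm1, Rchy1 and Odaph. Mthfd2l, directly beside Epgn, was at 0.40 ± 0.32 and Parm1, directly beside Btc, at 0.12 ± 0.20 in the authors' deposited table. The chemokine gene Cxcl1 was at 0.83 ± 0.31 with a Wald adjusted p of 0.060 in the authors' deposited table. Rchy1 was at 0.70 ± 0.28 (Wald adjusted p 0.084), Cxcl2 at 1.41 ± 0.67 and Odaph at -0.23 ± 0.46 in the authors' deposited table. Cxcl1, Cxcl2 and Rchy1 were thus listed above the uncalled member Areg at 0.65. Human positions were not used here, but the same symbols can be read in the human table. PARM1 was at 3.75 ± 0.57 with a Wald adjusted p of 2.39e-10 and a level of 21.4, and MTHFD2L at -0.38 ± 0.15 with an adjusted p of 0.023, in the authors' deposited table. CXCL2 was at 2.55 ± 0.38, RCHY1 at 0.69 ± 0.12 and CXCL1 at -0.49 ± 0.18 in the authors' deposited table. Their Wald adjusted p-values were 8.31e-11, 1.09e-08 and 0.015. No row matched ODAPH, and all the others were called, where 52.5% of all tested human genes were.

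Across models, ERBB3, BTC and EREG were the 3 members called in both tables, and each was positive in both. Of all 12777 shared symbols 7.61% were called in both tables, and 2.27% were called and positive in both. Of the 9 members with a row in both, 6 were listed with the same sign, against 46.6% of shared symbols. These counts of shared signs hold only if the fold changes of both models are written the same way round. The difference of the listed log2 fold changes, PANC1 minus KPC, was tested per gene over its combined SE (normal test, Benjamini-Hochberg over 12777 shared symbols) and was called for 7 of 9 members, against 34.9% of all shared symbols. The test takes both tables as written the same way round. With the sign of the PANC1 table turned, an alternative chosen after seeing the data, the same 7 members were called with ERBB3 in addition, 8 of 9 against 30.0% of shared symbols. The size and direction of each difference below hold for the tables as written.

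HBEGF differed by 2.14 ± 0.25 (adjusted p 1.42e-15 by the difference test), with 2.52 in PANC1 and 0.38 in KPC. ERBB2 differed by -1.96 ± 0.23 (adjusted p 1.13e-15), with -1.83 against 0.13, and TGFA by -1.89 ± 0.36 (adjusted p 1.67e-06), with -2.21 against -0.33. EREG was more positive in PANC1 by 1.44 ± 0.35, AREG by 1.95 ± 0.60, BTC by 1.39 ± 0.56 and EPGN by 3.64 ± 1.18 in the same test. With the sign turned, each of these 7 differences changed direction. They were then -2.90 for HBEGF, -3.52 for EREG, -3.25 for AREG, -4.39 for BTC, -3.53 for EPGN, 1.70 for ERBB2 and 2.54 for TGFA. For ERBB3 the difference was -0.65 ± 0.51 (adjusted p 0.33, interval -1.64 to 0.34) and for EGFR 0.57 ± 0.30 (adjusted p 0.13, interval -0.02 to 1.16). Neither passed, and the intervals do not exclude a 2-fold difference between models for either receptor. The difference of EGFR was called with recentring, at 0.82 (adjusted p 0.023), and with the level trend subtracted, at 0.89 (adjusted p 0.014). That of ERBB3 was called with the PANC1 sign turned, at -3.07 (adjusted p 3.42e-08).

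**Figure D4:**
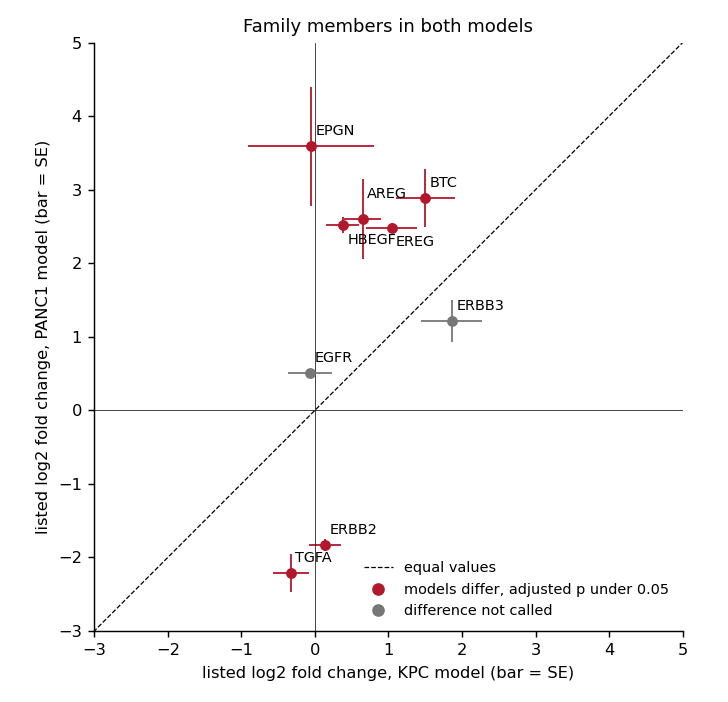
Listed log2 fold change in the PANC1 model against that in the KPC model for the 9 members with a row in both tables, with SE bars and a dashed line of equal values; red marks a difference between models at an adjusted p under 0.05. ERBB3 and EGFR are grey, 5 ligands lie above the line, and TGFA and ERBB2 lie below 0 in PANC1.

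The rest of the receptor and ligand family comprises ERBB4 and the neuregulins, which bind ERBB4 and, for some of them, ERBB3. In the mouse, 0 of 5 were called positive and 1 negative, with a median log2 fold change of -0.75. Over all tested mouse genes 5.77% were positive and 4.60% negative. Nrg1, the neuregulin gene that pairs with Erbb3 as ligand and receptor, was at -1.66 ± 0.25 with a level of 414 and a Wald adjusted p of 8.64e-09 in the authors' deposited table. It thus had the opposite sign to Erbb3 at 1.86. Erbb4 was at -1.71 ± 0.73 (adjusted p 0.11) and Nrg4 at 1.02 ± 0.42 (adjusted p 0.093) by the Wald test, both at levels near 35 (35.6 and 34.1), in the authors' deposited table. The authors' deposited table gave -0.47 ± 0.51 for Nrg2 and -0.75 ± 1.10 for Nrg3, neither called.

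In the human table, 1 of 4 of these genes was positive and 1 negative, and no row matched NRG3. That is near the shares over all tested human genes, 26.0% positive and 26.5% negative. NRG2 was at -1.03 ± 0.14 with a level of 188 and ERBB4 at 3.12 ± 0.70 with 11.0 in the authors' deposited table, with Wald adjusted p-values of 2.82e-12 and 2.53e-05. NRG1 was at -0.09 ± 0.10 with 432 (adjusted p 0.47 by the Wald test) in the authors' deposited table. NRG4, at -1.82 ± 0.95, was not called in the authors' deposited table (Wald adjusted p 0.096). Of the 4 shared genes, 3 differed between the models as written, against 34.9% of all shared symbols. They were NRG1 (1.57 ± 0.27, adjusted p 9.84e-08 by the difference test), ERBB4 (4.83 ± 1.01, adjusted p 2.04e-05) and, in the other direction, NRG4 (-2.84 ± 1.03, adjusted p 0.021). With the PANC1 sign turned, NRG1 was still called, at 1.75, and ERBB4 and NRG4 were not (adjusted p 0.31 and 0.60). NRG2 was called only with the sign turned, at 1.51 (adjusted p 0.020 by the difference test). Of all shared symbols 30.0% were called that way.

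Genes of ligand shedding, the step that frees these ligands, were counted next. In the mouse 2 of 9 tested were positive and 1 negative, with a median of 0.12, where 5.77% of all tested mouse genes were positive and 4.60% negative. In the human model 5 of 10 were positive and 5 negative, with a median of -0.03. Of all tested human genes 26.0% were positive and 26.5% negative. With genes at 64 or more adjusted on their own, 8 of 8 human genes of the list were called, against 8023 of all 11301. In the mouse 3 of 9 were, against 1345 of all 9767, and such mouse genes had a median of 0.22. Adam17 and Adam10, the main sheddases of the EGF ligands, were both positive in the mouse at 0.91 ± 0.23 and 0.86 ± 0.20 (Wald adjusted p 0.0028 and 0.00083) in the authors' deposited table. With the level trend subtracted Adam10 was still called, at 0.61, and Adam17, at 0.67, was not. In PANC1, ADAM17 was at 0.20 ± 0.06 and ADAM10 at -1.06 ± 0.06 (Wald adjusted p 0.0033 and 2.08e-68) in the authors' deposited table. ADAM10, the sheddase of betacellulin and EGF, thus had opposite listed signs in the models, taking both tables as written the same way round, and the difference of -1.92 ± 0.21 was called (adjusted p 4.85e-18 by the difference test). With the PANC1 sign turned, this difference was 0.20 and not called (adjusted p 0.52). As written, ADAM12 was negative in both, at -1.54 ± 0.22 in KPC and -1.22 ± 0.54 in PANC1 in the authors' deposited tables. Its human level was 12.8. The other human genes of this list with the smallest adjusted p-values were on both sides. ADAM8, ADAM15 and ADAM9 were at 1.26 ± 0.20, 0.46 ± 0.08 and 0.20 ± 0.05, and FRMD8, RHBDF1 and MMP7 at -0.47 ± 0.08, -0.26 ± 0.10 and -1.15 ± 0.46 in the authors' deposited table.

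Adaptors and effectors that dock on the activated receptors showed 3 positive and 1 negative of 18 in the mouse (median 0.14) and 4 positive and 7 negative of 18 in the human model (median -0.12). Called in either direction were thus 4 of 18 in the mouse and 11 of 18 in the human model. Of all tested genes 10.4% and 52.5% were. With genes at 64 or more adjusted on their own, 3 of 17 mouse genes of the list were called, against 1345 of all 9767. In the human model 10 of 16 were, against 8023 of all 11301. The median of such mouse genes was 0.22. Under the same reading of the tables, the scaffold gene Gab2 was -0.61 ± 0.19 in KPC and 1.49 ± 0.11 in PANC1 in the authors' deposited tables, and the difference of 2.10 ± 0.22 was called (adjusted p 7.00e-20 by the difference test). With the PANC1 sign turned it was -0.88 and called (adjusted p 0.00045). Eps8 and Eps15, both substrates of EGFR, were at 0.89 ± 0.25 and 0.53 ± 0.17 in KPC and at -0.23 ± 0.07 and -0.33 ± 0.07 in PANC1 in the authors' deposited tables. Stat5a was the third positive mouse gene, at 1.13 ± 0.36 in the authors' deposited table. With recentred fold changes Gab2 was the 1 mouse gene of this list still called. STAT3, which transmits cytokine as well as EGFR signals, was at -0.84 ± 0.05 and the adaptor gene CRKL at 0.66 ± 0.06 in PANC1 in the authors' deposited table.

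Of 18 genes listed around receptor attenuation, not all of them attenuators, 1 was called positive and 1 negative in the mouse (median 0.20). That share is near the 10.4% of all tested genes. Both calls sat at the threshold: Lrig1, a membrane inhibitor of the receptors, was at 0.47 ± 0.17 and Socs5 at -0.51 ± 0.18 with Wald adjusted p-values of 0.05 and 0.049 in the authors' deposited table. The human model had 7 positive and 5 negative of 18 (median 0.06), where 26.0% of all tested genes were positive and 26.5% negative. With genes at 64 or more adjusted on their own, 11 of 17 human genes of the list were called, against 8023 of all 11301. ERRFI1, whose product MIG6 binds and blocks the EGFR kinase, was at 0.81 ± 0.04 with a level of 16360 and a Wald adjusted p of 3.01e-72 in the authors' deposited table. The ubiquitin ligase genes CBLC and CBLB were positive at 3.05 ± 0.31 and 0.77 ± 0.14, and the receptor phosphatase gene PTPRJ was negative at -1.23 ± 0.06, in the authors' deposited table. USP8, a deubiquitinase of the endosomal sorting of receptors, was at -0.43 ± 0.07 in the authors' deposited table.

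Target genes of ERK, the kinase that EGFR activates through RAS, were mostly called positive in PANC1. Of 15 genes 12 were positive and 1 negative there, with a median of 0.91, where 26.0% of all tested genes were positive and 26.5% negative. In KPC 2 of 15 were positive and 1 negative, with a median of 0.20, where 5.77% and 4.60% of all tested genes were. With genes at 64 or more adjusted on their own, 11 of 13 were positive and 0 negative in PANC1. All 11301 such genes gave 3781 positive and 4242 negative. In KPC the list counts stayed the same, against 1122 positive and 223 negative of 9767. The median of such mouse genes was 0.22. FOSL1, DUSP6 and SPRY2 were at 2.20 ± 0.08, 2.16 ± 0.10 and 1.80 ± 0.08 and EGR1 at 4.87 ± 0.25 in the authors' deposited table for PANC1. As written, EPHA4 was the negative gene in both, at -3.80 ± 0.39 in PANC1 and -0.60 ± 0.16 in KPC in the authors' deposited tables. In KPC the positive calls were Egr1 at 1.73 ± 0.27 and Dusp6 at 0.60 ± 0.21 in the authors' deposited table (Wald adjusted p 4.37e-08 and 0.049). Dusp6 lost its call in 6 of 7 alternatives, among them recentring (0.38, adjusted p 0.23), and Egr1 in 1, the t distribution.

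**Figure D5:**
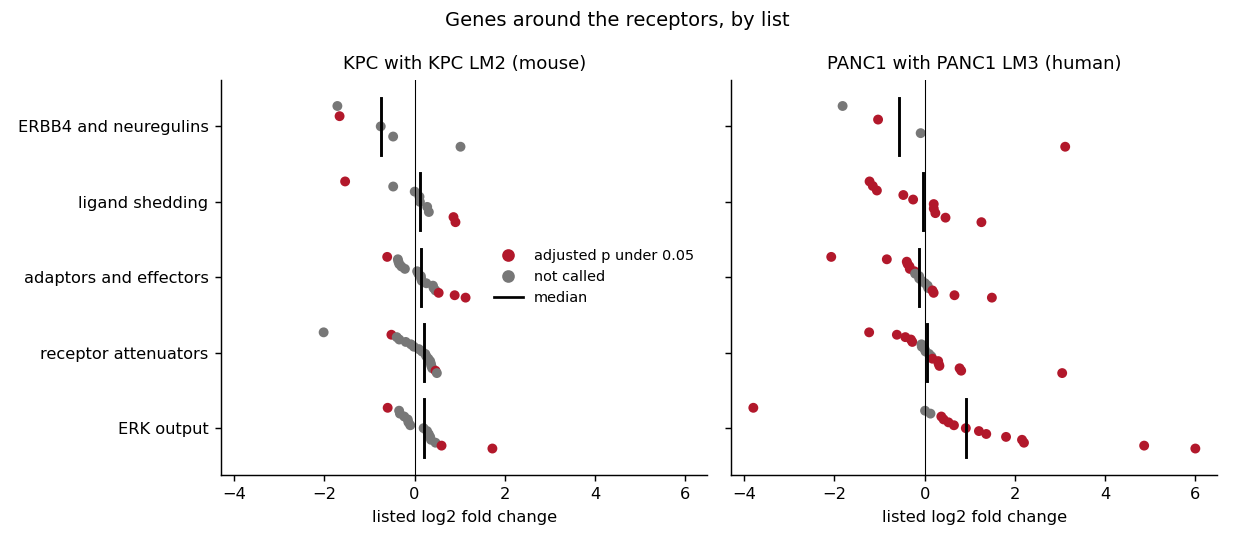
Listed log2 fold change of each tested gene of the 5 lists (points, red at an adjusted p under 0.05) with the list median (black bar), KPC model on the left and PANC1 model on the right. In the PANC1 panel the ERK output list has its median at 0.91 and 12 red points to the right of 0, and the other lists have points on both sides.

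Some members are also expressed by cells of the liver and its vessels, so markers of those cells were read in the same tables. In bulk RNA, fewer cells of a type and less RNA per cell cannot be told apart. In KPC the duct and carcinoma markers Krt7, Krt8, Krt18, Krt19, Epcam, Cdh1, Sox9 and Vim had levels from 524 to 28158, with 1 called positive and 1 negative of 8. These calls were Krt7 at 1.18 and Epcam at -1.14 in the authors' deposited table, where 10.4% of all tested mouse genes were called. Summed over each list, the mouse counts were 85.8 for 9 hepatocyte markers with a row, 133 for 8 fibroblast, 141 for 8 endothelial and 119 for 5 platelet markers. For 10 leukocyte markers the sum was 583, of which Cd14 made 471. In these 5 host lists 0 genes were called positive and 2 negative, Adgre1 and Col1a1, in the Wald test. Over all tested mouse genes 5.77% were called positive and 4.60% negative. Most tested mouse host markers were listed negative, as were low genes of that table in general. Listed positive were 0 of 8 fibroblast markers (median -1.64), 1 of 8 endothelial (median -1.11), 1 of 7 hepatocyte (median -1.56), 1 of 4 platelet (median -0.62) and 3 of 7 leukocyte markers (median -0.74). In PANC1 the duct and carcinoma markers went from 45.4 to 49702, with 2 positive and 5 negative of 8. Over all tested human genes 26.0% were positive and 26.5% negative. Positive were EPCAM at 0.97 and SOX9 at 0.70 in the authors' deposited table. Negative were KRT8 at -4.35, CDH1 at -3.92, KRT19 at -3.79, KRT18 at -3.35 and VIM at -0.46 in the authors' deposited table. No row matched ALB, APOA1, PECAM1 or VWF in the human table, PTPRC had a level of 2.26, and the leukocyte gene CD68 stood at 1103 with a log2 fold change of 1.91 in the authors' deposited table. Summed human levels were 158 for 4 hepatocyte markers with a row (CPS1 132), 1159 for 6 leukocyte, 623 for 7 fibroblast (COL3A1 405), 23.2 for 3 endothelial and 58.1 for 3 platelet markers. In these 5 human host lists CD68, COL3A1 and ITGA2B were called positive and CPS1, S100A9 and CDH5 negative in the Wald test. The build was human and the host species is not named. Whether these human rows report host cells or the tumour line itself is therefore not known. Most tested genes of these lists were not called, while 52.5% of all tested human genes were. The part of these markers in the members' values was not tested.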

How the data were processed

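RNA sequencing of 12 samples (total RNA, TruSeq library kit per the labels' protocols) was read through 2 comparison tables. The submitters' processing notes name DESeq2 1.24, MultiQC 1.9, featureCounts 2.0.0 and STAR 2.7.6a, with builds mm39 and hg19; settings, annotation and design are not given in the sources used here. The mean normalised count, a signal the authors deposited as baseMean, is not defined in the headers and is read as in DESeq2. Log2 fold changes and SEs were deposited on the log2 scale. A score, the Wald statistic, and p-values with their adjustment were deposited by the authors for each gene. Adjusted p-values were listed for 20050 mouse genes, at a level of 3.08 or more, and 17838 human genes, at 1.08 or more. No column holds a sample, so the count test that had been planned was not possible. Replicates are called biological in the titles, with nothing on separate animals.

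Genes were called at an adjusted p under 0.05. Intervals are normal 95% intervals from the listed SE. Members and lists were chosen with earlier results of these data known. All members were named, with ERBB4 and the neuregulins and up to 4 called genes per list, sign and model; not every gene so chosen is printed. Neighbouring genes were chosen after values were seen. Group levels were computed from the mean and fold change for 3 libraries a group. The calls, the level trend and the difference test were run on simulated data. Noise there was drawn from the listed SEs, so those SEs were not themselves tested. Tools were matplotlib 3.10.9, scipy 1.17.1, pandas 2.3.3 and numpy 2.4.6 under Python 3.11.15. As alternatives served a stricter threshold, a minimum fold, adjustment over all genes with a p, genes at 64 or more, recentring on them, subtraction of a running median over 501 genes ordered by level, and a t distribution with 4 degrees of freedom. Sequences are RefSeq's for GRCm38.p6.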

Additional observations from a re-analysis of the deposited data

Results flagged for a closer look

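Of the 9 members in both tables, 7 had log2 fold changes that differed between the mouse and the human model in the difference test (adjusted p under 0.05 over 12777 shared symbols, with the PANC1 minus KPC value given). Taking both tables as written the same way round, more positive in PANC1 were EPGN by 3.64, HBEGF by 2.14, AREG by 1.95, EREG by 1.44 and BTC by 1.39. More negative in PANC1 were ERBB2, at -1.96, and TGFA, at -1.89. With the sign of the PANC1 table turned the same 7 were called and each value changed direction (EPGN -3.53, HBEGF -2.90, AREG -3.25, EREG -3.52, BTC -4.39, ERBB2 1.70 and TGFA 2.54). Of all shared symbols 34.9% differed as written and 30.0% with the sign turned. The models differ in species, line and generation, and these cannot be told apart.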

How the results depend on the processing

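No paired analysis was possible because the tables hold comparisons and no value per library; for the same reason leaving out each replicate could not be run. In KPC, Erbb3 and Btc stayed called under each alternative but the t distribution with 4 degrees of freedom, under which 0 of 10 members and 0 pathway genes were called (0 genes over the whole table; 5752 genes with a p had an unadjusted p under 0.05 in the authors' Wald test, 4 of them members). Ereg also lost its call at an adjusted p under 0.01, with recentring and with the level trend subtracted, leaving 2 members. Of the pathway genes, 13 were called in KPC, 7 at an adjusted p under 0.01, 4 with an absolute log2 fold change over 1 and 7 with the level trend subtracted. The split of 8 positive and 5 negative became 3 and 6 with recentring. Erbb2 turned to -0.085 with recentring and -0.10 without the level trend, and Epgn and Nrg3 to 1.26 and 0.75 without the level trend. The call of Lrig1, like that of Dusp6, was kept in 1 of 7 alternatives. In PANC1 all 9 members kept their calls and signs except where a setting removed them: 5 were left among genes at 64 or more, since the others lie below, and EGFR dropped with the minimum fold. Of 48 pathway genes called in PANC1, 18 had an absolute log2 fold change over 1. Among genes at 64 or more, 4 of 5 tested members differed between models. BTC lost that difference at an adjusted p under 0.01 and EPGN lost it without the level trend, while EGFR gained it with recentring and without the level trend. The median listed SE was 0.38 over all tested genes and 0.24 at 64 or more in KPC, and 0.14 and 0.09 in PANC1.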
